A study of Mus musculus with 87 samples.

Results

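The 7 genes described here, H2-Q4, H2-Q5, H2-Q6, H2-Q7, H2-T22, H2-T23 and H2-M3, are non-classical class I genes of the mouse major histocompatibility complex (MHC-I), taken by symbol from 2 deposited tables of 48526 genes each, in which every symbol had 1 row. The tables came from adult wildtype C57BL/6J mice of both sexes, 6 to 12 months old. Their ventral midbrain had received 40 ng of IFN-γ (groups named IFNG) in 400 nL of saline, or 400 nL of saline alone (Saline). For the plate table, nuclei were sorted by NeuN, a nuclear protein of neurons, and pools of NeuN+ or NeuN- nuclei were sequenced in 84 wells, 42 for each fraction. Wells were collected 6, 24, 48 or 72 h later. Each fraction and time point had 6 IFNG wells and 4 Saline wells, or 6 Saline wells at 24 h. For the single-nucleus table, nuclei of 1 Saline mouse and 2 IFNG mice were profiled at 48 h. All groups shared the surgery and the injected volume, and none carried a transgene or a deletion. The wells came from few mice per group and which wells shared a mouse was not given, so p-values over wells measured the spread between wells, which may be technical.

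Class I molecules are heavy chains that pair with β2-microglobulin, and their genes are induced by interferons through transcription factors such as IRF1 and the class I transactivator NLRC5. The classical members present peptides from inside the cell to CD8 T cells, whereas the non-classical members are less variable between individuals and have more specialised partners. H2-T23 encodes the heavy chain of Qa-1, the ligand of the CD94-NKG2A receptor of natural killer cells and CD8 T cells, and it is known for presenting the signal peptides of other class I chains. H2-T22 encodes a chain that does not need peptide and is recognised by a subset of γδ T cells. H2-Q7 is the best known gene for Qa-2, a lipid-anchored surface molecule, and H2-Q4, H2-Q5 and H2-Q6 lie beside it as near copies. H2-M3 presents peptides that begin with formyl-methionine, as those of bacteria and mitochondria do. In the healthy brain class I genes are known for very low expression outside microglia.

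All 7 genes lie on chromosome 17 (GRCm38). On the plus strand, H2-Q4 (ENSMUSG00000035929.11) lies at chr17:35379617-35385290 and H2-Q5 (ENSMUSG00000055413.12) at chr17:35394126-35397800. They are followed by H2-Q6 (ENSMUSG00000073409.12) at chr17:35424850-35430055, H2-Q7 (ENSMUSG00000060550.15) at chr17:35439155-35443773 and H2-M3 (ENSMUSG00000016206.6) at chr17:37270220-37274484. On the minus strand, H2-T23 (ENSMUSG00000067212.8) lies at chr17:36029773-36032855 and H2-T22 (ENSMUSG00000056116.18) at chr17:36037128-36042747. The annotation lists H2-Q5 as a polymorphic pseudogene and the others as protein coding. An antisense gene, A930015D03Rik, overlaps both H2-T22 and H2-T23, and another, Gm11131, overlaps H2-Q4, and whether reads were counted by strand was not stated.

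The 250 bases upstream of the start site are shown for 4 members, H2-Q4 and H2-Q6 because their counts differed in opposite directions between cell classes, and H2-T22 and H2-T23 because their counts had different time courses. The sequences and start sites are from RefSeq (GRCm38.p6), and these starts can differ from the gene spans above. The span of H2-T23 ends at chr17:36032855 on the side of its start, inside the window shown, so the marked match lies within that span. The sequences are read 5′ to 3′ on the strand of the gene and have in capitals the matches to 2 interferon-response motifs in either orientation. These were AAGTGAAAC, which reads GTTTCACTT on the other strand, and the core of the interferon-stimulated response element, a pair of GAAA blocks with 2 bases between them.
H2-Q4 (chr17:35379367-35379616, plus strand): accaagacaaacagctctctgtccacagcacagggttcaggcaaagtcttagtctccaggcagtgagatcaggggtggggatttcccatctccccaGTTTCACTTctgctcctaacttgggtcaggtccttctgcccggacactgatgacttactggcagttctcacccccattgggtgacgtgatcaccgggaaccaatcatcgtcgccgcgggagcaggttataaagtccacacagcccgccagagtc
H2-Q6 (chr17:35424600-35424849, plus strand): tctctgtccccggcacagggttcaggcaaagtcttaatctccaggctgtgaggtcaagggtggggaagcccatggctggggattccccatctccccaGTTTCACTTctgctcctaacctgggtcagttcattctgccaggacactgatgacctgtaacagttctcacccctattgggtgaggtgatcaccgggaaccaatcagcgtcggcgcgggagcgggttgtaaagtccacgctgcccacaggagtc
H2-T22 (chr17:36042743-36042992, minus strand): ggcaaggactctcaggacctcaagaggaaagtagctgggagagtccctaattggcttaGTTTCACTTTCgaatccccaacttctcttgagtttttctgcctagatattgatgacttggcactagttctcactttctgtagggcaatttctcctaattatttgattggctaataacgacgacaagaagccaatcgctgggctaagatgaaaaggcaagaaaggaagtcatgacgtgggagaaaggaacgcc
H2-T23 (chr17:36032702-36032951, minus strand): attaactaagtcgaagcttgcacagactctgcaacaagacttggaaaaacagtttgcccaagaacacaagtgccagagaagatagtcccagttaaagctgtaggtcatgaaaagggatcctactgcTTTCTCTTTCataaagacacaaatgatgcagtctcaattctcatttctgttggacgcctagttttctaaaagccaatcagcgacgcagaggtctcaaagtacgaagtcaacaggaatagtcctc

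AAGTGAAAC, chosen after these promoters were viewed, occurred once in the window (250 bases before the RefSeq start) of H2-Q4, H2-Q6, H2-Q7, H2-T22 and H2-M3 and not in that of H2-T23. Over the same 250 bases, it was in 0.338% of the 32851 promoter windows of the RefSeq table, among them those of the classical genes H2-K1 and H2-D1. The response element core was found in H2-T22, where it overlapped the other match, and in H2-T23 and B2m, against 2.98% of all windows. The window of H2-Q6 alone among the 6 held the class I κB sequence (0.0304% of windows) that H2-K1 and H2-D1 also had. H2-Q5 had no window in the table. The upstream sequences of H2-Q6 and H2-Q7 were 97.2% identical over 211 aligned positions, against 83.3% over 251 for H2-Q4 and H2-Q6. A match to a motif describes the letters of the window and not binding.

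Depth set what could be measured. NeuN- wells held 20962 to 301445 counts (median 110248) and NeuN+ wells 277113 to 1684374 (median 1064220), each count being a distinct molecule by its molecular identifier. Over all 84 wells H2-T22 had 842 counts, H2-T23 274, H2-Q4 171, H2-M3 155, H2-Q7 133, H2-Q6 63 and H2-Q5 16, and in the nuclei the members had 179 (H2-Q5) to 2418 (H2-T23) molecules. Levels are given as CPM (counts scaled to a common total for each well or summed class) and are compared between groups, not between genes. A gene was called different in the wells at an absolute log2 fold change above 1 and an adjusted p below 0.01. In NeuN- wells no member had enough counts to pass the usual filter on low counts, and in NeuN+ wells only H2-T22 passed it at every time and H2-T23 at 24 h, so fits that kept every gene with a count were used for the rest and are named as unfiltered. Because the H2-Q genes are near copies, reads may have been assigned to the wrong one. Of all 58-base stretches in the last 500 bases of the transcript, 21.1% in H2-Q4, 27.3% in H2-Q5, 38.7% in H2-Q6 and 8.41% in H2-Q7 also occurred in another gene of any kind. For H2-T22 it was 26.9%, for H2-T23 14.1%, and for H2-M3 none. H2-Q4 shared 8.58% with H2-Q6, and H2-Q6 shared 23.5% with H2-Q7. The sum of the 4 H2-Q genes is therefore given beside the single genes. It does not cover stretches shared with the classical genes, which were 8.24% for H2-Q6 with H2-D1 and 5.62% for H2-Q5 with H2-K1.

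NeuN status was taken from the study's list of well barcodes, since every well carries the same NeuN+ tag in the sample labels, and the levels of marker genes went with that list. The summed level of 5 oligodendrocyte genes was 1848 to 7031 CPM in NeuN- wells and 122 to 561 CPM in NeuN+ wells. Within NeuN- wells, marker levels moved with treatment. The oligodendrocyte list had medians of 2105 CPM in IFNG and 6242 CPM in Saline wells at 24 h and 4045 and 6288 CPM at 6 h. The list of 6 microglial genes had 176 and 300.4 CPM at 24 h and 94.03 and 272.5 CPM at 6 h, with C1qa at 0 in all Saline wells of 24 h. The astrocyte list had 1184 and 526.4 CPM at 24 h. At 48 h the medians in IFNG and Saline wells were 5924 and 6613 CPM for the oligodendrocyte, 184.4 and 320.9 CPM for the microglial and 695.4 and 439.3 CPM for the astrocyte list. At 72 h they were 6314 and 6419, 308 and 259.6, and 621.3 and 749.2 CPM. The Y-linked gene Eif2s3y was lower in IFNG than in Saline NeuN- wells at 6 h (log2 difference -5.83 ± 0.57) and Xist was lower at 24 h (-3.63 ± 0.53), so the mix of males and females differed between the groups compared. The part of these differences in the results was not tested, and in bulk wells fewer cells of a type and less RNA per cell cannot be told apart.

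H2-T22 and H2-T23 rose in NeuN- nuclei at 6 and 24 h, and H2-T22 rose in NeuN+ nuclei at both times, whereas H2-T23 in NeuN+ nuclei rose at 24 h and had similar counts in both treatments at 6 h. H2-Q4 rose at 24 h in both fractions, and H2-Q6 and H2-Q7 in NeuN+ nuclei. By 72 h no single member passed the test in either fraction, while the summed H2-Q counts passed it in both. Of the members tested without the filter, 2 of 5 were called higher in NeuN- wells at 6 h (1.7% of all genes), 3 of 7 at 24 h (2.24%), 0 of 7 at 48 h (0.244%) and 0 of 6 at 72 h (0.203%). In NeuN+ wells 1 of 6 was called higher at 6 h (0.571% of all genes), 5 of 7 at 24 h (0.95%), 1 of 7 at 48 h (0.142%) and 0 of 7 at 72 h (0.182%). No member was called lower. At an unadjusted p under 0.05, edgeR had 4 members higher in NeuN- wells at 48 h and 5 at 72 h, and 2 higher in NeuN+ wells at 72 h. DESeq2 had 2, 3 and 1 at the same unadjusted p, and neither tool called any.

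H2-T22 had counts in every IFNG well of both fractions. In NeuN- wells at 6 h it was at 28.3 to 95.4 CPM (median 48.4) in 6 IFNG wells and at 7.25, 8.56, 0 and 0 CPM in the Saline wells. At 24 h it was at 40.2 to 79.6 CPM (median 45.1) against 14.8 CPM in 1 Saline well and 0 in the other 5. The groups did not overlap at either time. Overlap of wells was examined for the members only, here and below. How common its absence was among all genes is not known, so it only describes the values. The ratio of pooled CPM was 10.4 (95% interval 2.66 to 89.3) at 6 h and 32 (5.52 to 1285) at 24 h. The log2 fold changes were 3.14 ± 0.74 (SE, adjusted p = 0.00101) and 4.42 ± 0.74 (adjusted p = 2.06e-07) in the unfiltered fit of edgeR. These intervals, like all intervals on counts here, cover counting error only. At 6 h the call was lost without Saline replicate 3 or 4, and at 24 h, without Saline replicate 3, which held the lone Saline count, the log2 fold change was 5.95. At 48 h the IFNG wells spanned 11.3 to 47.8 CPM (median 28.3) and the Saline wells were at 10.4, 8.42, 0 and 12.5 CPM. At 72 h they spanned 9.14 to 38.1 CPM (median 18.5) against 14.4, 0, 0 and 0 CPM. The groups overlapped at both later times and the differences, of 1.65 ± 0.75 (adjusted p = 0.608) and 2.19 (adjusted p = 0.499), did not pass the test.

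In NeuN+ wells, which were deeper, H2-T22 was present without treatment. At 6 h it was at 12.9 to 21.2 CPM (mean 17.2 ± 2.73, SD, n = 6) in IFNG wells and at 7.22, 5.86, 5.05 and 6.45 CPM in Saline wells. At 24 h it was at 29.2 to 40.6 CPM (34.2 ± 4.15, n = 6) against 7.19 to 17.6 CPM (10.9 ± 3.76, n = 6). No IFNG well fell within the Saline range at either time. With the filter, edgeR gave log2 fold changes of 1.44 ± 0.32 (adjusted p = 0.00288) at 6 h, where 1.08% of all genes were called higher, and 1.72 ± 0.20 (adjusted p = 7.06e-07) at 24 h, where 1.47% were. The 6 h call was lost without Saline replicate 2, 3 or 4. At 48 h the IFNG wells were at 10.3 to 25.7 CPM (18 ± 5.78, n = 6) against 9.95, 11.7, 11.8 and 6.16 CPM. At 72 h they were at 7.64 to 17.9 CPM (12.8 ± 4.23, n = 6) against 11.6, 9.25, 3.67 and 7.14 CPM. The wells overlapped at these times and the log2 fold changes of 0.85 ± 0.28 (adjusted p = 0.203) and 0.59 (adjusted p = 0.277) did not pass, where 0.15% and 0.351% of all genes did. Across the Saline wells of all times H2-T22 was 1.28 ± 0.43 higher on the log2 scale in NeuN+ than in NeuN- nuclei (unfiltered fit, adjusted p = 0.0102), which missed the limit of 0.01 where 26.4% of all genes passed.

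**Figure D1:**
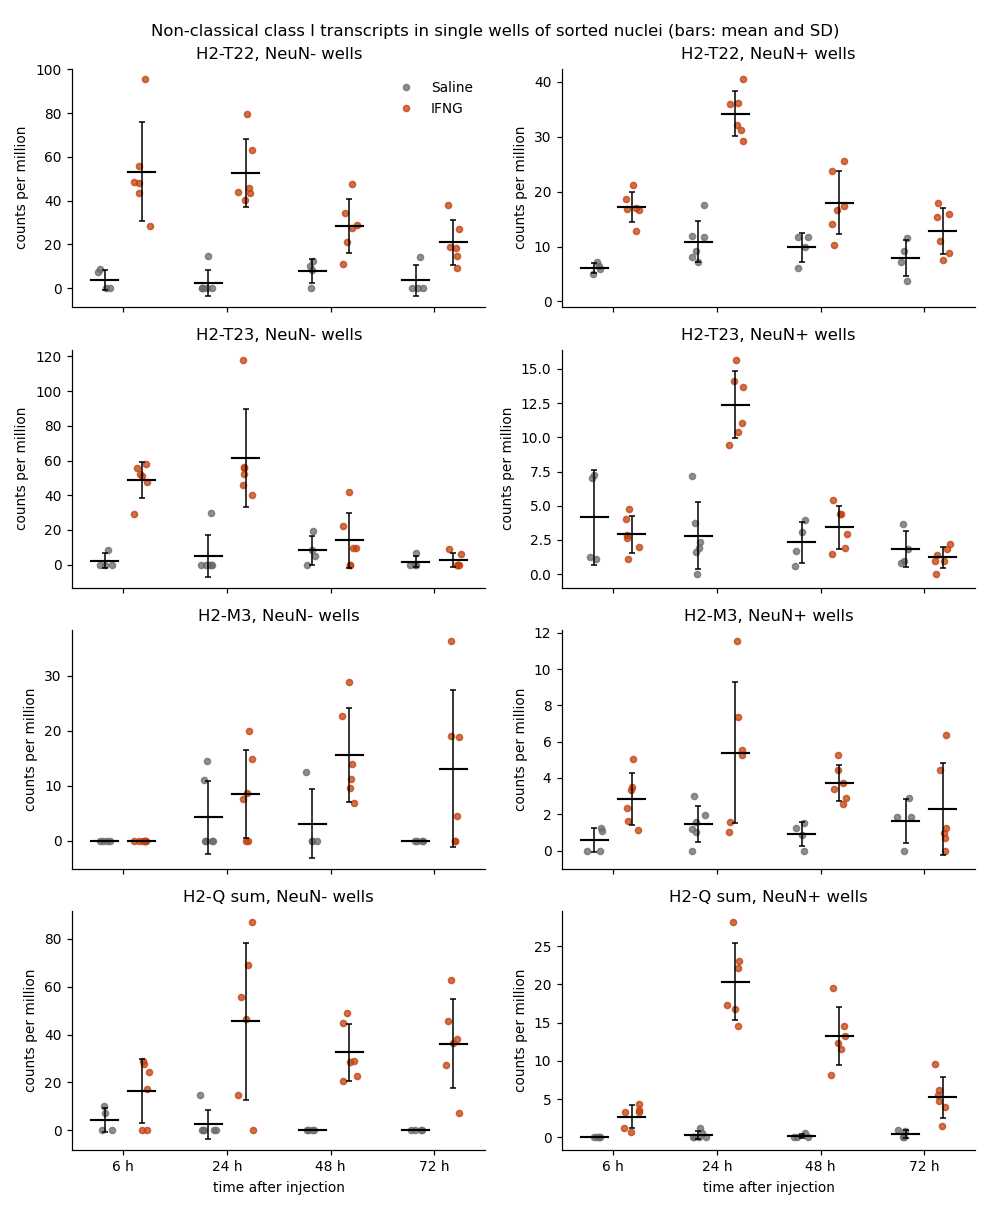
Each point is 1 well of sorted nuclei, with CPM on the vertical axis (scales differ between panels) and hours after injection on the horizontal axis, for Saline (grey) and IFNG (orange) wells, and bars give the mean and SD. H2-T22 stands apart from Saline at 6 and 24 h in both fractions, H2-T23 in NeuN+ wells only at 24 h, and the summed H2-Q counts in NeuN+ wells at all 4 times.

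H2-T23 differed between the fractions at 6 h. In NeuN- wells it was at 29.1 to 57.9 CPM (48.9 ± 10.3, n = 6) in IFNG wells against 0, 8.56, 0 and 0 CPM in Saline wells, a pooled ratio of 21.4 (3.59 to 870) and a log2 fold change of 3.92 ± 0.83 (unfiltered edgeR fit, adjusted p = 0.00012). In NeuN+ wells at the same time it was at 1.12 to 4.74 CPM (2.91 ± 1.33, n = 6) in IFNG wells and at 7.22, 7.03, 1.26 and 1.07 CPM in Saline wells, so that the IFNG wells lay inside the Saline range (log2 fold change -0.31 ± 0.61, adjusted p = 0.835). The treatment effect was 4.61 ± 1.13 lower on the log2 scale in NeuN+ than in NeuN- nuclei (edgeR interaction term, adjusted p = 0.00504), where 1.59% of all genes were called lower. That comparison had 95 genes lower and 56 higher, or 77 and 75 with RLE scaling, under which H2-T23 was still called (-4.54, adjusted p = 0.00589). Without the filter the same difference had an adjusted p of 0.0149, and the call was lost without Saline replicate 1, 3 or 4 of the NeuN- wells or Saline replicate 1 or 2 of the NeuN+ wells, the last pair holding most of the Saline counts. The difference ranged from -7.98 to -3.87 when single wells were left out. In the same NeuN+ comparison the sex-linked genes differed, 3 of the 4 tested being lower in IFNG wells, and their part in it was not tested.

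By 24 h H2-T23 was higher in both fractions. NeuN- IFNG wells were at 40.2 to 118 CPM (median 54) against 29.7 CPM in 1 Saline well and 0 in the other 5, and NeuN+ IFNG wells at 9.47 to 15.6 CPM (12.4 ± 2.43, n = 6) against 0 to 7.16 CPM (2.81 ± 2.45, n = 6). The groups did not overlap in either fraction. The log2 fold change was 3.67 ± 0.67 in NeuN- (unfiltered edgeR fit, adjusted p = 2.77e-06), or 5.92 without the Saline well that held both Saline counts (replicate 3), and 2.31 ± 0.38 in NeuN+ wells (adjusted p = 0.000125). At this time the interaction was -1.59 for H2-T23 (adjusted p = 0.436) and -3.11 ± 0.96 for H2-T22 (adjusted p = 0.024), and neither passed, although H2-T22 passed without Saline replicate 3 of the NeuN- wells (-6.47). H2-T23 was not called at the later times. At 48 h NeuN- IFNG wells were at 0 to 42 CPM (median 9.6) against 5.19, 8.42, 19.7 and 0 CPM. At 72 h they held 3 counts over 6 wells, 0 to 9.12 CPM, against 1 count in 4. NeuN+ wells were at 1.48 to 5.4 CPM against 3.98, 0.614, 1.68 and 3.08 CPM at 48 h and at 0 to 2.21 CPM against 0.967, 1.85, 3.67 and 0.794 CPM at 72 h. Adjusted p-values at these times lay between 0.642 and 0.876 in the unfiltered fits.

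The fall of H2-T23 was larger than that of H2-T22. Between 24 and 72 h in IFNG wells, H2-T23 fell by 3.20 ± 0.44 on the log2 scale in NeuN+ (edgeR, adjusted p = 1.17e-07) and by 3.69 ± 0.59 in NeuN- nuclei (unfiltered, adjusted p = 3.09e-08), and H2-T22 fell by 1.38 ± 0.19 (adjusted p = 1.44e-07) and 1.48 ± 0.41 (unfiltered, adjusted p = 0.00903). The share of H2-T23 among the counts of H2-T22 and H2-T23 set the genes against each other within IFNG wells. In NeuN- IFNG wells it was 50.7% at 6 h (34 of 67 counts), 48.6% at 24 h (54 of 111) and 15% at 72 h (3 of 20), and in NeuN+ IFNG wells 14.4% at 6 h (20 of 139), 26.6% at 24 h (73 of 274) and 8.65% at 72 h (9 of 104). By an exact two-sided permutation test over wells, chosen after the values were seen and adjusted over 8 such tests, the share fell between 24 and 72 h in both fractions and rose between 6 and 24 h in NeuN+ wells (each p = 0.00216, the smallest that 6 against 6 wells can give, adjusted p = 0.00577). Between 6 and 24 h in NeuN- wells the exact permutation test did not pass (p = 0.79). Saline wells did not enter these tests. In Saline NeuN+ wells H2-T23 and H2-T22 had 10 and 17 counts at 6 h, 18 and 77 at 24 h and 6 and 33 at 72 h. The share therefore differed between times there too, and the Saline level of H2-T22 was not subtracted. The difference in the IFNG effect between times, with the Saline wells of each time in the fit, called neither gene, and time and mouse cannot be told apart.

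**Figure D2:**
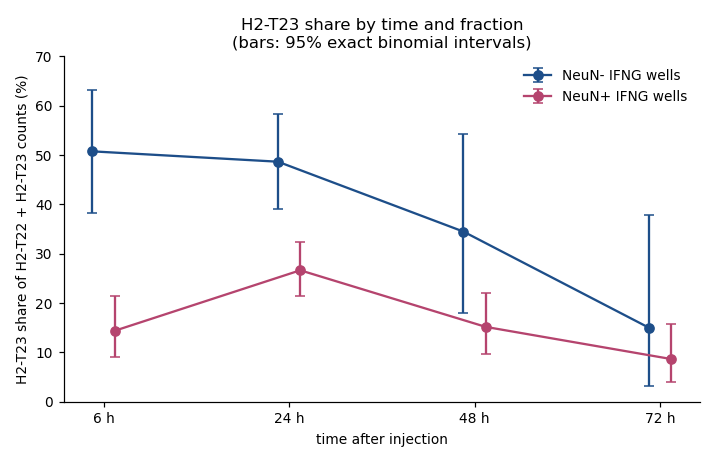
The share of H2-T23 among the summed counts of H2-T22 and H2-T23 in IFNG wells (vertical axis, percent) is plotted by hours after injection for NeuN- (blue) and NeuN+ wells (magenta), with exact 95% binomial intervals from the pooled counts. The NeuN- share stays near 50% to 24 h and reaches 15% at 72 h, and the NeuN+ share peaks at 26.6% at 24 h.

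Among the H2-Q genes, H2-Q4 was at 0 in nearly every Saline well. In NeuN- IFNG wells it was at 0 to 60.9 CPM at 24 h (median 28.6), 6.9 to 33.8 CPM at 48 h (18.9 ± 9.7, n = 6) and 7.44 to 37.6 CPM at 72 h (22.8 ± 11.8, n = 6), while no Saline well had a count at any of these times. Every IFNG well at 48 and 72 h was therefore above every Saline well. Against a floor of 3 counts over the Saline group, H2-Q4 was at least 5.99-fold higher at 24 h, 2.93-fold at 48 h and 4.04-fold at 72 h, but only the 24 h difference passed the unfiltered test (adjusted p = 6.11e-05, and 0.127 and 0.0238 later). In NeuN+ IFNG wells H2-Q4 was at 0.666 to 2.87 CPM at 6 h against 0 in all 4 Saline wells, and at 6.17 to 14.1 CPM at 24 h (8.58 ± 2.81, n = 6) against 1 count in the 6 Saline wells. The ratio at 24 h was 61.1 (10.5 to 2462, unfiltered edgeR adjusted p = 3.79e-11). At 48 and 72 h it was at 0 to 5.27 and 0 to 4.77 CPM and did not pass (adjusted p = 0.0556 and 0.41).

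H2-Q6 and H2-Q7 were called in NeuN+ wells, which were deeper. H2-Q7 was at 5.29 to 12.9 CPM at 24 h (7.17 ± 2.9, n = 6) against 1 count over 6 Saline wells, and at 3.71 to 10.8 CPM at 48 h (6.82 ± 2.58, n = 6) against none. The groups did not overlap at either time. The ratio at 24 h was 48.6 (8.23 to 1969, adjusted p = 1.02e-08), and at 48 h H2-Q7 was at least 9.1-fold higher (adjusted p = 7.94e-06), the only member called at that time. At 72 h it was at 0 to 3.82 CPM against 0 (adjusted p = 0.0438). H2-Q6 was at 0 to 7.82 CPM at 24 h and 1.29 to 6.75 CPM at 48 h, with no count in any Saline NeuN+ well, at least 9.56-fold and 4.25-fold higher (adjusted p = 4.35e-06 and 0.0159). In NeuN- IFNG wells H2-Q6 had 0 to 5 and H2-Q7 2 to 12 counts per group of 6 wells, and H2-Q5 had 16 counts in all 84 wells, with 0 to 3 in a well. In CPM, H2-Q7 had means of 11.6, 7.41 and 8.77 in NeuN- IFNG wells at 24, 48 and 72 h, and H2-Q6 of 2.38, 4.64 and 4.65. None of these was called in NeuN- wells.

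Summed, the H2-Q counts were higher in IFNG than in Saline wells for longer than H2-T22 or H2-T23 alone. In NeuN- IFNG wells the H2-Q sum was at 0 to 28.9 CPM at 6 h, 0 to 87 CPM at 24 h (45.5 ± 32.9, n = 6), 20.7 to 49 CPM at 48 h (32.5 ± 11.8) and 7.44 to 62.6 CPM at 72 h (36.3 ± 18.4), against 0 in all Saline wells at 48 and 72 h. It passed the unfiltered test at 24 h (adjusted p = 2.51e-06), 48 h (0.00318) and 72 h (0.000214) and not at 6 h (0.355). In NeuN+ IFNG wells it was at 0.666 to 4.3 CPM at 6 h, 14.5 to 28.1 CPM at 24 h (20.3 ± 5.05), 8.16 to 19.6 CPM at 48 h (13.2 ± 3.77) and 1.43 to 9.55 CPM at 72 h (5.24 ± 2.67). No IFNG well overlapped a Saline well at any time, and the test passed at 24 h (log2 fold change 5.74 ± 0.44, adjusted p = 2.61e-10), 48 h (5.19 ± 0.63, adjusted p = 3.19e-05) and 72 h (3.06 ± 0.76, unfiltered adjusted p = 0.00419). Between 6 and 24 h in NeuN+ IFNG wells the sum rose by 2.84 ± 0.33 on the log2 scale (adjusted p = 3.09e-09) and by 72 h it fell by 1.94 (adjusted p = 8.98e-07). Over the same steps 5 of 7 members rose without the filter (0.527% of all genes), all but H2-Q5 and H2-M3, and 3 of 7 fell (0.713%), H2-Q4, H2-T22 and H2-T23. In NeuN- IFNG wells no member rose between 6 and 24 h by edgeR or DESeq2 (3 of 7 at an unadjusted p under 0.05 in edgeR and none in DESeq2, against 1.23% of all genes called), and 2 of 7, H2-T22 and H2-T23, fell by 72 h (1.4%).

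H2-M3 gave a weaker contrast. NeuN+ IFNG wells were at 1.04 to 11.5 CPM at 24 h (median 5.4) against 0 to 3 CPM, a log2 fold change of 1.80 ± 0.50 (unfiltered edgeR fit, adjusted p = 0.0111) that passed only when Saline replicate 5 or IFNG replicate 1 or 5 was left out. At 48 h the IFNG wells, at 2.58 to 5.27 CPM (3.71 ± 1, n = 6), lay above all 4 Saline wells, at 0, 1.23, 0.841 and 1.54 CPM, with an adjusted p of 0.395. In NeuN- wells H2-M3 had no count in the 10 wells of 6 h and 10 to 12 counts per IFNG group later, and no difference passed.

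When the NeuN+ counts were thinned to the median depth of the NeuN- wells, no member was called at any time in NeuN+ wells, with or without the filter. The antisense gene A930015D03Rik was also higher in NeuN- IFNG wells, by 1.37 ± 0.24 on the log2 scale at 6 h and 1.16 ± 0.30 at 24 h, and was not called in NeuN+ wells (0.38 and 0.46 at these times) or in any nuclear class. Without strand, reads of an antisense partner cannot be told apart from those of the gene. Gm11131 was called in no comparison of treatment in the unfiltered fits, its adjusted p being 0.334 or more.

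In single nuclei at 48 h, clusters made without the class I and interferon-response genes were called oligodendrocyte-like, astrocyte-like, microglia-like and VGLUT2, GABA and DA (dopaminergic) neuron-like from marker genes, and are written here as classes of those names. The classes held 191, 703 and 283 oligodendrocytes in the Saline mouse and the 2 IFNG mice, 21, 136 and 37 astrocytes, 31, 49 and 54 microglia, 167, 503 and 149 VGLUT2 neurons, 259, 473 and 217 GABA neurons, 174, 152 and 109 DA neurons, and 173, 558 and 260 nuclei that stayed unnamed. The names were rebuilt here, so a class may not hold the same nuclei as in the study. The mice filled the clusters of a class unequally: 1 GABA cluster held 17, 194 and 3 nuclei and another 82, 21 and 73. At a finer Leiden resolution (2 in place of 1), 36 nuclei of the IFNG mice (13 and 23) formed a monocyte- or macrophage-like cluster with none of the Saline mouse, and 98 stayed microglia-like. Cd74 and the class II genes H2-Aa, H2-Ab1 and H2-Eb1 led the cluster of 36, and its second marker list was that of microglia. The study found these genes in microglia after IFN-γ. Whether the 36 nuclei were microglia changed by IFN-γ was not tested. In the microglial class used here the monocyte and macrophage markers were at 917, 398 and 1265 CPM, beside 7085, 3931 and 4270 CPM for the microglial markers, and at Leiden resolution 0.5 that cluster got no name. Molecules (UMIs) were summed by mouse and class, no barcode was shared between libraries, and values are given in the order Saline, IFNG 1 and IFNG 2. A difference was called here at an absolute log2 fold change above 3, in each IFNG mouse and in the fit, with an adjusted p below 0.01. The lone Saline mouse was assumed to vary like the IFNG mice, so the p-values in nuclei do not measure how Saline mice vary.

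H2-T23 was the member with the clearest difference in oligodendrocytes, at 1.44, 251 and 450 CPM (1, 640 and 598 UMIs), a log2 fold change of 7.89 ± 0.45 (edgeR, adjusted p = 3.09e-64). It was at 0, 46.1 and 107 CPM in astrocytes, 47.6, 143 and 202 CPM in microglia, 3.73, 13.2 and 29.1 CPM in VGLUT2, 3.74, 14.8 and 26.9 CPM in GABA and 2, 15 and 25.1 CPM in DA neurons. Both IFNG mice were above the Saline mouse in all 6 classes, but outside oligodendrocytes H2-T23 was not called: in DA neurons it reached 3.28 ± 0.50 (adjusted p = 0.00183) with a log2 ratio of 2.87 in IFNG 1, under the limit of 3, and in the others its adjusted p was 0.0879 or more. H2-T22 rose in oligodendrocytes, from 2.88 to 39.2 and 43.7 CPM (3.86 ± 0.63, adjusted p = 1.41e-07). In neurons it had 54 to 70 UMIs per class without treatment, 13.8 to 17 CPM, and 23.9 to 47.5 CPM in the IFNG mice, linear ratios of 1.74 to 3.44, under the limit of 3 on the log2 scale. In microglia it was at 23.8, 86.8 and 90.4 CPM and in astrocytes at 0, 29.2 and 38.7 CPM.

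The H2-Q genes had 6 UMIs in all nuclei of the Saline mouse, 5 of them of H2-Q7, against 16 to 396 in each class of each IFNG mouse. Their sum was at 104 and 138 CPM in oligodendrocytes, 33.8 and 68.8 CPM in astrocytes, 383 and 628 CPM in microglia, 40.7 and 70.4 CPM in VGLUT2, 48.1 and 78.3 CPM in GABA and 24.1 and 75 CPM in DA neurons of IFNG 1 and IFNG 2. The Saline mouse had 0 CPM in oligodendrocytes and astrocytes, 23.8 CPM (2 UMIs, of H2-Q7) in microglia, and 0.197 to 0.267 CPM (1 UMI each) in the neurons. Every class but astrocytes passed for the sum, with adjusted p of 5.87e-30 in oligodendrocytes, 1.65e-06 in microglia, 0.00108 in VGLUT2, 0.000209 in GABA and 8.54e-06 in DA neurons (edgeR), and 0.329 in astrocytes. As single genes, H2-Q4 was called in oligodendrocytes, microglia and DA neurons, H2-Q6 in microglia and all 3 neuron classes, and H2-Q7 in oligodendrocytes and GABA neurons. The Saline mouse had 0 UMIs in each of these. Against a floor of 3 UMIs there, H2-Q4 in oligodendrocytes of IFNG 1 was at least 19.1-fold higher. H2-Q4 and H2-Q6 in microglia and H2-Q7 in oligodendrocytes were at least 2.29- to 4.88-fold higher, under the limit of 3 on the log2 scale. Those calls depend on the 0.5 added to each UMI sum for the ratio of a mouse. The others were at least 8.77-fold higher. Neuron classes without a call rose too, so the calls do not tell which classes responded. H2-Q4 was at 0.197, 14 and 32 CPM in GABA and 0, 11.6 and 25.1 CPM in VGLUT2 neurons. H2-Q7 was at 0.267, 12.8 and 16.7 CPM in VGLUT2 and 0.25, 6.58 and 17.1 CPM in DA neurons. DESeq2 called H2-Q4 and H2-T23 in oligodendrocytes and no member in any other class. At Leiden resolution 2 the calls in VGLUT2 and GABA neurons were lost, and so were those of H2-Q6 in microglia and H2-Q7 in oligodendrocytes. At that resolution 229 nuclei led by the oligodendrocyte list, 0 of them of the Saline mouse, got no name and left that class. H2-M3 was at 0, 7.45 and 8.28 CPM in oligodendrocytes, 23.8, 35.7 and 38.7 CPM in microglia and 2.75 to 3.35, 2.92 to 5.46 and 5.84 to 11 CPM in neurons, and was called in no class. Members called higher were 4 of 6 tested in oligodendrocytes (0.547% of all genes), 0 of 4 in astrocytes (0.0841%), 2 of 7 in microglia (0.718%), 1 of 7 in VGLUT2 (0.0226%), 2 of 7 in GABA (0.0333%) and 2 of 7 in DA neurons (0.0377%). In astrocytes 3 of 4 had an unadjusted p under 0.05 in edgeR and 1 in DESeq2, which called none.

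**Figure D3:**
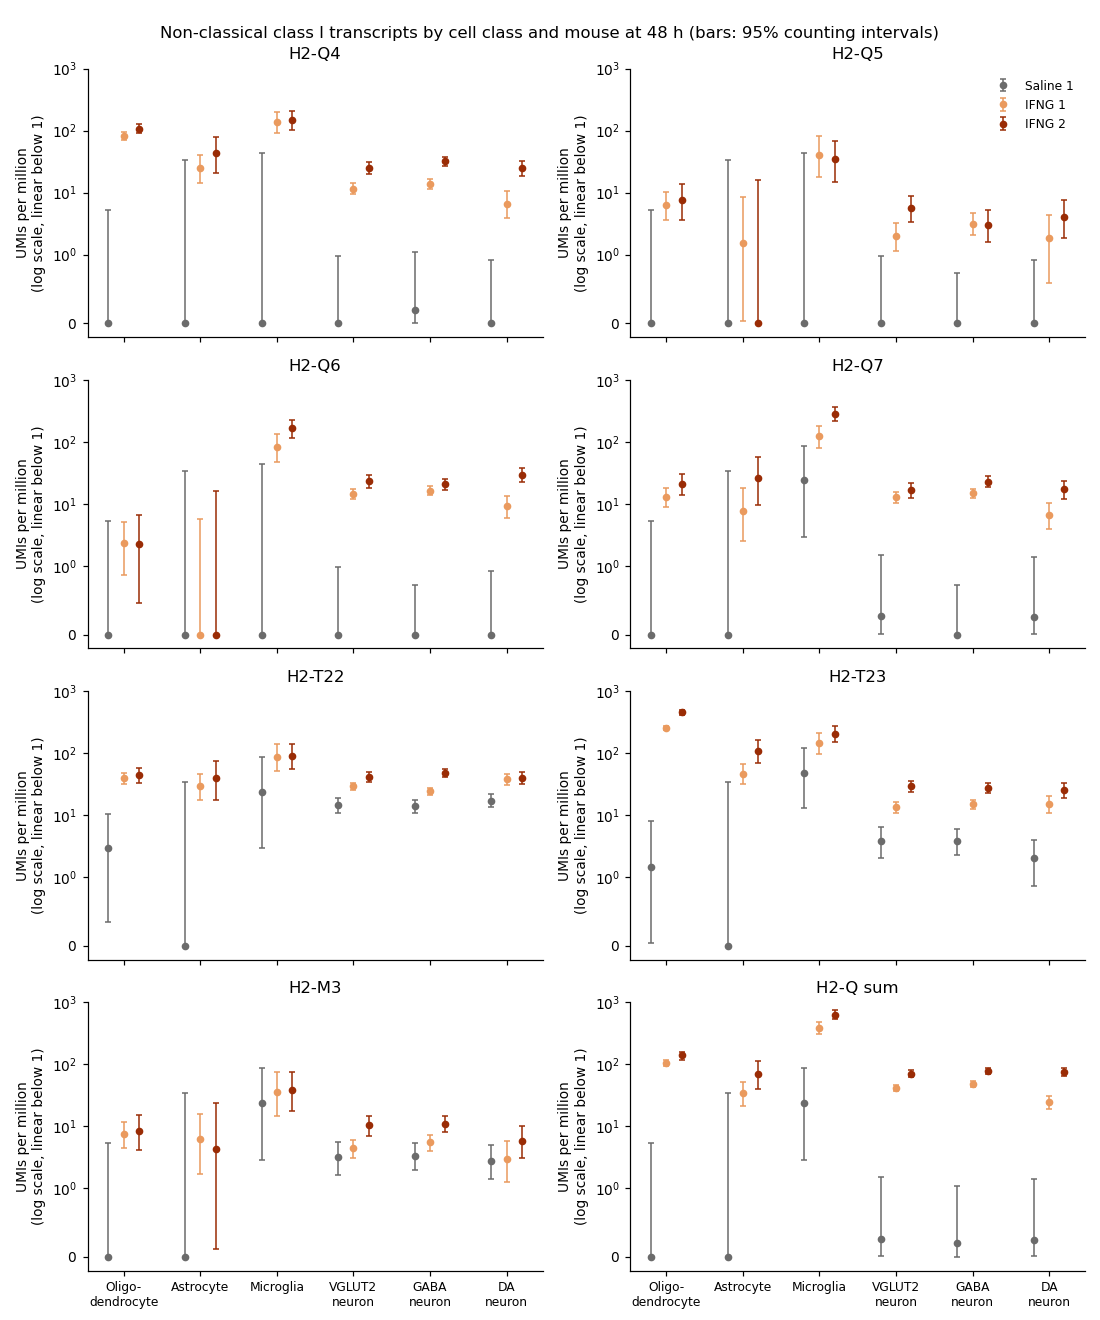
UMI levels in CPM (vertical axis, log scale that is linear below 1) are plotted for each member and the H2-Q sum in 6 cell classes of the Saline mouse (grey) and the 2 IFNG mice (orange and brown) at 48 h, with exact 95% Poisson intervals. H2-T23 is highest in oligodendrocytes, the H2-Q sum in microglia, and H2-Q6 is low in oligodendrocytes and at 0 in astrocytes.

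Within the IFNG mice, members differed between neurons and glia in different directions on the CPM scale. The mean of the 3 neuron classes was compared with each glial class, with mouse as a term and a limit of 1 on the log2 scale. Median UMIs per nucleus in IFNG 1 and IFNG 2 were 3437 and 4150 in oligodendrocytes, 4448 and 6012 in astrocytes and 3800 and 3909 in microglia. In the neuron classes they ran from 14230 to 18441. The comparison is therefore of shares of all UMIs in a class, and molecules per nucleus were not compared. Against oligodendrocytes, H2-T23 was lower in neurons by 4.18 ± 0.14 (SE, log2, adjusted p = 6.36e-202) and H2-Q4 by 2.55 ± 0.16 (adjusted p = 1.38e-54), while H2-Q6 was higher by 2.79 ± 0.40 (adjusted p = 1.75e-11). The other 4 did not pass, H2-Q7 at -0.28 (adjusted p = 0.376), H2-T22 at -0.33 (0.124), H2-M3 at -0.52 (0.251) and H2-Q5 at -1.24 (0.0131). So 2 of 7 members were called lower in neurons (13.1% of all genes) and 1 higher (18.8%). H2-Q6 was at 2.35 and 2.26 CPM in the oligodendrocytes of IFNG 1 and IFNG 2, and at 14.3 and 22.9 CPM in VGLUT2, 16.3 and 20.6 CPM in GABA and 9.14 and 29.2 CPM in DA neurons. Both mice had the same sign for H2-T23 (-4.27 and -4.07), H2-Q4 (-3.14 and -1.99) and H2-Q6 (2.20 and 3.18). Only these 2 mice entered the fits, so the SE and p-values of all 3 glial comparisons rest on a spread shared over genes and classes. They do not measure how far mice differ. For H2-Q4 the values of the 2 mice lay further apart than its SE of 0.16.

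Against astrocytes, H2-T23 was lower in neurons by 1.64 ± 0.26 (edgeR, adjusted p = 2.28e-09). H2-Q6 had no UMI in the astrocytes of either mouse, which allows up to 4.61 and 12.9 CPM at 3 UMIs, against 9.14 to 16.3 and 20.6 to 29.2 CPM in the neurons of the same mice (adjusted p = 6.63e-07). These were the 2 members called (9.39% of all genes were lower in neurons and 12.3% higher). Against microglia, 6 of 7 members were lower in neurons (11.3% of all genes), H2-Q7 by 3.01 ± 0.25 (adjusted p = 8.52e-33), H2-Q5 by 2.81 ± 0.58 (5.67e-06), H2-T23 by 2.35, H2-Q4 by 2.25 ± 0.26 (1.34e-16), H2-Q6 by 1.97 ± 0.28 (4.00e-11) and H2-M3 by 1.83 ± 0.51 (0.00125). At Leiden resolution 2, with the monocyte- or macrophage-like nuclei apart, 4 of 7 were called, H2-Q7 by 2.41, H2-Q4 by 1.99, H2-T23 by 1.77 and H2-Q6 by 1.32, and H2-Q5 (adjusted p = 0.0685) and H2-M3 (0.139) were not. H2-T22 was at 86.8 and 90.4 CPM in microglia and 23.9 to 47.5 CPM in neurons, a difference of -0.56 that did not pass (adjusted p = 0.11). Transcripts of a class's markers in other classes gave a measure of stray RNA, which differed between lists. The 5 oligodendrocyte markers summed to 9703 to 12449 CPM in oligodendrocytes, 54.97 to 94.5 CPM in astrocytes, 64.6 to 71.5 CPM in microglia and 13.6 to 25.3 CPM in neurons. The microglial markers summed to 3931 to 7085 CPM in microglia and 99.2 to 143 CPM in neurons. The astrocyte markers summed to 4095 to 4269 CPM in astrocytes, 220 to 298 CPM in microglia, 127 to 215 CPM in oligodendrocytes and 1.18 to 9.43 CPM in neurons. The part of stray RNA in the levels of the members was not tested.

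**Figure D4:**
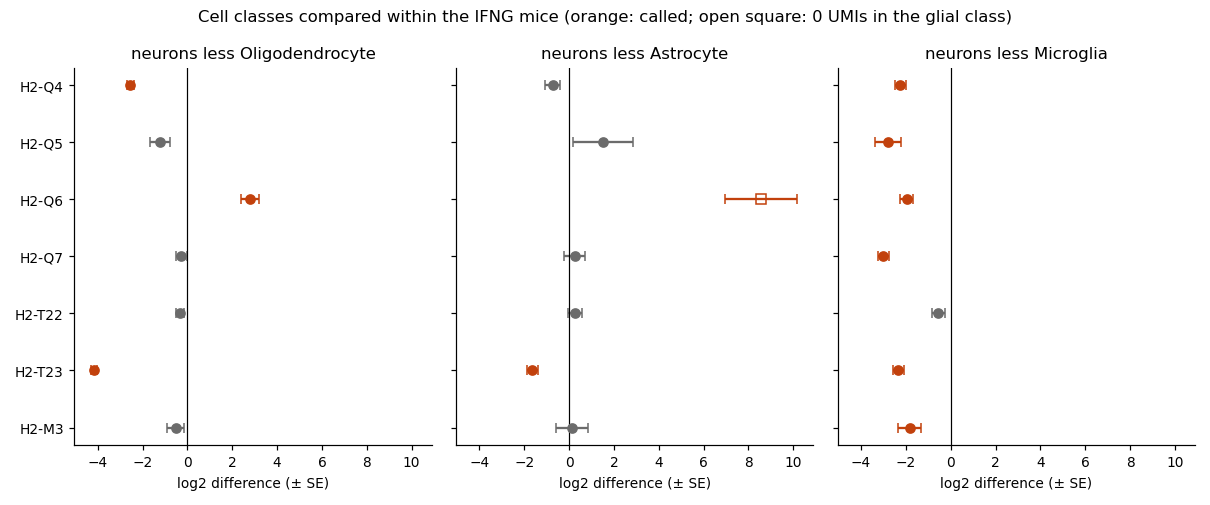
The log2 difference between the mean of the 3 neuron classes and each glial class within the IFNG mice is plotted with its SE, orange where called and an open square where the glial class had 0 UMIs, so that the size of that fitted value is not defined. H2-T23 and H2-Q4 lie left of 0 and H2-Q6 right of 0 against oligodendrocytes, and all 7 lie left of 0 against microglia, a class in which 36 nuclei were monocyte- or macrophage-like at a finer resolution.

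The make-up of the H2-Q counts differed accordingly. In oligodendrocytes H2-Q4 held 79.2% of the H2-Q UMIs in IFNG 1 and 77.6% in IFNG 2, and H2-Q6 2.26% and 1.64%. In astrocytes H2-Q4 held 72.7% and 62.5% of 22 and 16 UMIs. In microglia H2-Q4 held 36% and 23.3%, H2-Q6 21.3% and 26% and H2-Q7 32% and 45.2%. In neurons H2-Q4 held 27.3% to 40.9%, H2-Q6 26.3% to 38.9% and H2-Q7 22.8% to 31.5%. The sorted wells allowed the same share to be compared with replicates. H2-Q4 held 65.3% of H2-Q counts in NeuN- and 41.9% in NeuN+ IFNG wells at 24 h (32 of 49 and 49 of 117 counts, exact two-sided permutation test over 6 and 6 wells, p = 0.00433, adjusted p = 0.00866 over the same 8 tests) and 54.5% and 18.6% at 48 h (12 of 22 and 16 of 86, p = 0.00649, adjusted p = 0.0104). At 6 h it held 84.6% and 68.4% (11 of 13 and 13 of 19, exact permutation p = 0.154) and at 72 h 59.4% and 40.5% (19 of 32 and 15 of 37, exact permutation p = 0.268), and neither passed. Reads that copies share could move counts between these genes. Reads shared with H2-D1 or H2-K1 could add counts that follow the level of those genes in a class. The part of such reads in the shares was not tested.

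**Figure D5:**
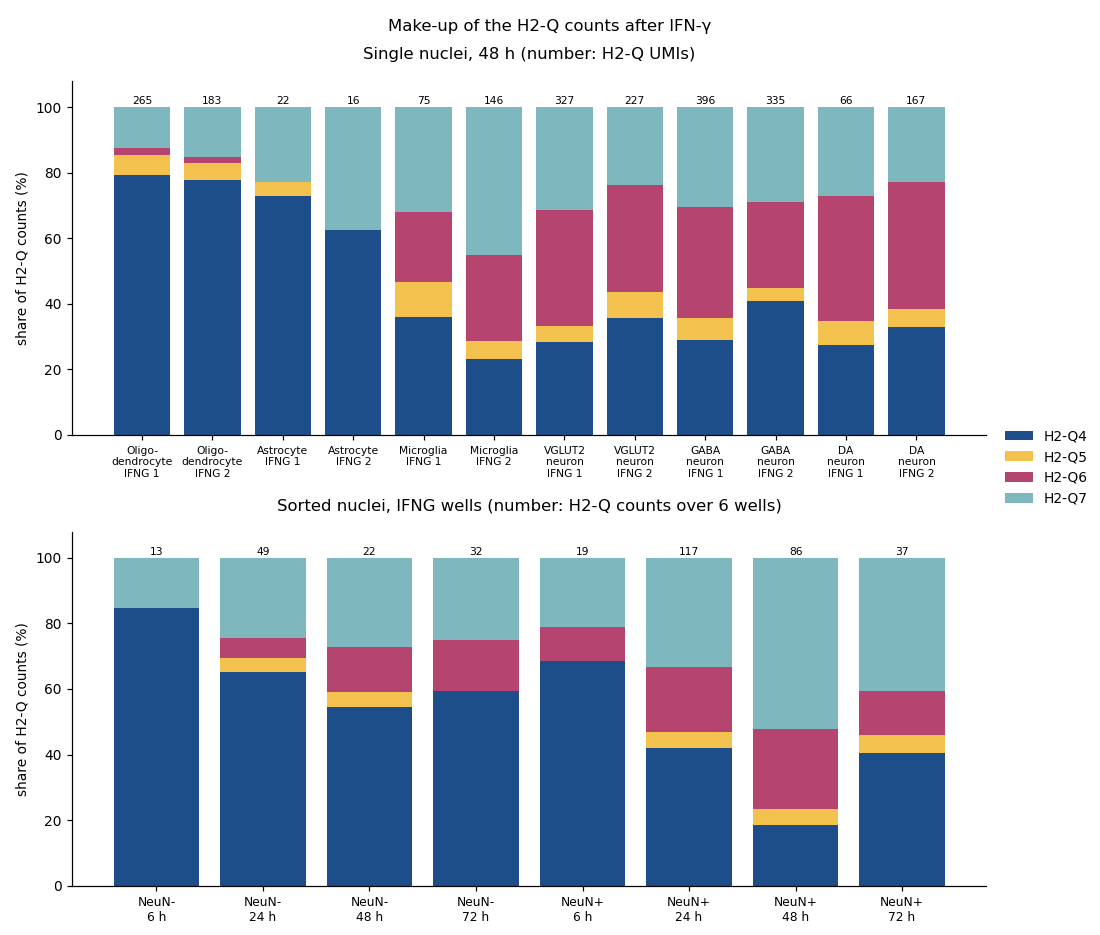
Stacked bars give the share of each H2-Q gene among all H2-Q counts (vertical axis, percent) for each cell class and IFNG mouse at 48 h (upper panel) and for IFNG wells of each fraction and time (lower panel), with the number of counts above each bar. H2-Q4 (blue) takes over 60% in oligodendrocytes and astrocytes, and H2-Q6 (magenta) is seen chiefly in neurons and microglia.

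At 48 h both tables could be set side by side. H2-T23 in oligodendrocyte nuclei was at 251 and 450 CPM in the IFNG mice against 1.44 CPM, whereas in the NeuN- wells, where the oligodendrocyte markers were at 4971 to 6207 CPM in IFNG wells, it was at 0 to 42 CPM with a pooled ratio of 1.83 (0.529 to 8.01). H2-Q4 was at 82.3 and 107 CPM in oligodendrocyte nuclei and at 6.9 to 33.8 CPM in the NeuN- wells, and H2-T22 at 39.2 and 43.7 and at 11.3 to 47.8 CPM. The tables came from different mice and libraries and were counted from reads of different length, and the cause of the difference for H2-T23 was not tested.

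The classical class I genes, for comparison, were called in more conditions than the members, few of which had the counts to pass the filter. H2-K1, H2-D1 and B2m were called higher in NeuN+ wells in 3 of 3 at 24, 48 and 72 h and 1 of 1 tested at 6 h, and in NeuN- wells in 1 of 1 at 6 h and 2 of 2 later. With the filter, 1.08%, 1.47%, 0.15% and 0.351% of all genes were called higher in NeuN+ wells at 6, 24, 48 and 72 h. In NeuN- wells 312, 275, 33 and 33 genes were called in either direction. At 24 h in NeuN+ wells H2-K1 was higher by 4.42 ± 0.26 and B2m, the light chain, by 4.23 ± 0.20 on the log2 scale, and at 72 h in NeuN- wells by 2.67 and 4.17 (all edgeR with the filter). Among 13 genes of peptide supply and loading (the TAP transporter, tapasin, immunoproteasome subunits and their like), 6 of 7 tested were called higher in NeuN- and 6 of 9 in NeuN+ wells at 6 h. At 24 h these were 0 of 1 and 5 of 8, and at 48 and at 72 h 0 of 1 and 0 of 4. Tap1, a subunit of the peptide transporter, was higher by 5.46 ± 0.35 in NeuN+ wells at 24 h. Nlrc5, the class I transactivator, was higher by 6.80 ± 0.21 in NeuN+ wells at 24 h and by 3.82 in NeuN- wells at 72 h. None of the 18 other non-classical genes in the table passed the filter in wells, and none was called higher in a cell class. Between 24 and 72 h in NeuN+ IFNG wells, 2 of 3 classical and 8 of 11 peptide-supply genes fell, among them H2-K1 by 1.48 on the log2 scale, and Irf1 fell by 4.71. Over that step 210 genes of the whole table were called in either direction with the filter.

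Over the 16 group means of the wells (log2 of CPM + 1), the genes with the most similar pattern were named for each member with at least 50 counts, out of 16473 genes. H2-Q6 and H2-Q7 were each other's nearest (Pearson's r = 0.873) followed by H2-D1 (0.778 and 0.87). H2-Q4 was nearest to BC023105 and Tgtp2 (0.948 each), H2-T22 to Wars (0.909) and Parp11 (0.908), H2-T23 to Ascc3 (0.919) and Arf4 (0.917), and H2-M3 to Cd36 (0.816) and D8Ertd738e (0.809). Between the members themselves r ran from 0.194 (H2-T23 and H2-M3) to 0.873. These are descriptions over groups that share fraction, treatment and depth, and carry no p.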

How the data were processed

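Wells of sorted nuclei and single nuclei were both deposited as raw counts of unique molecular identifiers per gene. Per the labels and the study's methods, the authors aligned reads with STAR to GRCm38 with a Gencode vM10 annotation, collapsed identifiers within 1 mismatch and, for the nuclei, counted gene bodies with introns and removed doublets and low-quality nuclei before deposit, so no doublet caller was run here. The NeuN fraction came from the study's list of well barcodes. The 7 genes and the gene lists were chosen with earlier results of these data known.

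Counts were fitted with edgeR 4.0.16 (R 4.3.3) by the quasi-likelihood test with TMM scaling and the filterByExpr filter, p-values were adjusted by Benjamini-Hochberg over all genes tested, and SE is the absolute log2 fold change over the square root of F. IFNG was compared with Saline within fraction and time, and times within IFNG wells, and an interaction term compared fractions. Calls needed an absolute log2 fold change above 1 (0.5 between Saline fractions, 3 in nuclei, where genes with under 10 summed counts were left out) and an adjusted p below 0.01. Nuclei were clustered with Leiden (resolution 1, 2000 variable genes, 30 principal components) after leaving out 140 class I and interferon-response genes, and clusters were named from marker lists. The genes named in the text were the 7 members, and list genes by the size of their change. Exact permutation tests over wells used scipy 1.17.1. Alternatives were no filter, RLE scaling, DESeq2 1.42.0, Saline wells of all times, thinning of NeuN+ counts, 1 fit of 84 wells, other Leiden resolutions, summed H2-Q counts and leaving out each well or IFNG mouse. The scripts were tested on simulated data. No columns were identical, and the depth of each fraction is given with the results. Counts over 1 of the gene lists are not reported here.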

Additional observations from a re-analysis of the deposited data

Results flagged for a closer look

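5 single wells stood apart from the other 5 of their group by Dixon's criterion, which chance alone passes in about 1 in 20 groups, and 50 groups with at least 10 counts were examined. H2-Q4 was at 14.1 CPM in replicate 1 of the NeuN+ IFNG wells at 24 h, H2-Q7 at 12.9 CPM in replicate 6 of the same group, and H2-Q6 at 6.75 CPM in replicate 2 of the NeuN+ IFNG wells at 48 h, all above the other wells. H2-T23 was at 118 CPM in replicate 5 of the NeuN- IFNG wells at 24 h, above the others, and at 29.1 CPM in replicate 3 of the NeuN- IFNG wells at 6 h, below them. The calls of H2-Q4, H2-Q7 and H2-T23 at 24 h, and that of H2-T23 at 6 h, were kept without the well concerned.

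The effect of IFNG on H2-T23 at 6 h differed between the fractions by -4.61 on the log2 scale, NeuN+ less NeuN- (edgeR interaction term, adjusted p = 0.00504), and this call was lost without the filter on low counts.

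The nuclei that no marker list named (173 in the Saline mouse, 558 in IFNG 1 and 260 in IFNG 2) were used in no comparison. In them the H2-Q sum was at 59.2 CPM in IFNG 1 and 80.9 CPM in IFNG 2 against 0.38 CPM in the Saline mouse, and H2-T23 was at 30.6 and 55.3 CPM against 3.42 CPM. Of the H2-T23 UMIs, 78 of 211 and 95 of 250 came from 1 cluster of 64 nuclei that held none of the Saline mouse and whose leading marker list was that of oligodendrocytes. It was at 521 and 826 CPM, and the other unnamed clusters were at 10.7 to 56 CPM.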

How the results depend on the processing

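Counts of members called are given here with the filter unless stated. In NeuN+ wells at 24 h 2 members were called, against 5 without the filter and 5 by DESeq2, 1 with the Saline wells of all times, 0 after thinning with or without the filter, and 1 to 2 with single wells left out. At 48 h none was called, against 1 without the filter and 1 by DESeq2. At 6 h 1 was called, against 0 by DESeq2, with all Saline wells and after thinning with or without the filter, and 0 to 1 with single wells left out, with or without the filter. In NeuN- wells none was called with the filter, against 3 at 24 h without it, by DESeq2 and in 1 fit of 84 wells, and at 6 h 2 without it, 1 by DESeq2 and 2 in 1 fit (1 to 2 with single wells left out of the unfiltered fit). The interaction at 6 h had 1 call, against 0 without the filter, by DESeq2 and after thinning, and 0 to 1 with wells left out, as at 24 h, where the full fit had none. From 6 to 24 h in NeuN+ IFNG wells 2 members were called, against 5 without the filter, 4 by DESeq2 and 0 for the difference over Saline, which was also 0 instead of 2 from 24 to 72 h. In NeuN- wells from 24 to 72 h none was called, against 2 without the filter and 1 by DESeq2.

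In nuclei, DESeq2 called 2 members instead of 4 in oligodendrocytes and 0 in the other classes. In GABA neurons 2 were called, against 4 without the filter and 0 at Leiden resolution 2. In microglia 2 were called, against 1 with RLE scaling and 1 at resolution 2. In VGLUT2 neurons 1 was called, against 2 with RLE scaling, 4 without the filter, 3 at resolution 0.5 and 0 at resolution 2. No called value changed sign under an alternative. With single wells left out of the unfiltered fit, values that were not called did: H2-T23 in NeuN+ wells at 6 h (-0.71 to 0.45) and 72 h (-0.61 to 0.05) and in NeuN- wells at 48 h (-0.11 to 1.34) and 72 h (-0.16 to 2.28), and H2-M3 in NeuN+ wells at 72 h (-0.20 to 0.98).

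The number of genes called over the whole table moved by over 1.5 times as follows. In NeuN+ wells at 24 h it went from 163 to 297 without the filter, 16 after thinning and 65 after thinning without the filter, at 48 h from 17 to 40, 1 and 3 under the same 3 settings, 11 with all Saline wells and 29 in 1 fit of 84 wells, at 6 h from 124 to 17 and 37 after thinning with and without the filter, and at 72 h from 72 to 12 and 15. In NeuN- wells it went from 275 to 639 without the filter, 517 by DESeq2 and 700 in 1 fit at 24 h, from 33 to 56 without the filter, 21 with all Saline wells and 55 in 1 fit at 48 h, from 312 to 478 in 1 fit at 6 h and from 33 to 20 with all Saline wells at 72 h. Between Saline fractions it went from 2735 to 7233 without the filter and 6463 by DESeq2. The interaction went from 322 to 169 (24 h), 8 to 0 (48 h), 151 to 58 (6 h) and 26 to 4 (72 h) after thinning, from 8 to 21 and 26 to 40 without the filter at 48 and 72 h, and from 8 to 15 by DESeq2 at 48 h. The steps between times in NeuN+ IFNG wells went from 183 to 66 and from 210 to 113 for the difference over Saline. In nuclei DESeq2 called 20 instead of 71 genes in oligodendrocytes, 3 instead of 61 in microglia and 1 instead of 11 in astrocytes. A fold limit of 1 on the log2 scale gave 114, 116, 12 and 8 in oligodendrocytes, microglia, DA and VGLUT2 neurons, of which the last pair had 7 and 5. Without the filter the counts were 12 in DA, 24 in VGLUT2 and 11 (from 7) in GABA neurons, and Leiden resolutions 0.5 and 2 gave 8 and 1 in VGLUT2 and 11 and 2 in GABA neurons.

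The causes were not tested beyond the smaller number of genes that the filter leaves. Thinning without the filter, leaving wells out of the unfiltered fit, and the summed H2-Q counts without the filter or for times and interaction were chosen after seeing the data. Low counts limited every NeuN- result and those of H2-Q5. No paired analysis was possible because which wells share a mouse was not given and the replicate numbers follow accession order.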
